A study of Drosophila melanogaster with 6 samples.

Results

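Cells that transcribe bi (bifid, also called optomotor-blind), the T-box transcription factor of the dorsal leg, were examined by single-cell RNA sequencing in pupal forelegs of Drosophila melanogaster, in their first tarsal segment. They were chosen by their counts: a barcode had at least 500 genes, at most 10% of its unique molecular identifiers (UMIs, tags that mark single RNA molecules) from mitochondrial genes, at least 2 UMIs of bi, and 0 UMIs of the ventral T-box genes H15 and mid, of Hml (hemocytes), elav (neurons), repo (glia) and twi (muscle precursors). This gave 11729 bi cells of 71346 filtered cells. They were set against 2 kinds of cell from the same library, paired with them on total UMIs within 2%: bi-zero cells, which had 0 UMIs of bi, Hml, elav, repo and twi (30627 cells), and H15/mid cells, which had in addition at least 2 UMIs of H15 and mid together (8605 cells).

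The study sampled the segment on which the male sex comb forms, at 12 h in females and males, at 16 h and 20 h in males, at 24 h in females and at 36 h in males, counted from puparium formation. Each of the 6 combinations was 1 library, made per the labels from 65 to 70 pooled segments with the 3' version of a droplet method. GAL4 inserted at doublesex (dsx), a gene of sex determination, drove UAS-mCherry in the pupae of 12 h, 20 h and 36 h and UAS-GFP in those of 16 h, while the 24 h females came from the inbred strain RAL-517. The 36 h tissue was dissociated for 45 min and the other tissue for 35 min. With 1 library per age and sex, differences between ages or sexes have no test, and their intervals cover counting error only.

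In the leg disc, the BMP ligand Dpp is made in a dorsal stripe and the Wnt ligand Wg in a ventral wedge along the border between the anterior and posterior compartments. Dpp signalling turns on bi and related T-box genes dorsally, Wg signalling turns on H15 and mid ventrally, and each side represses the other's ligand. bi is needed for dorsal leg identity and holds wg transcription off on the dorsal side. In the Ensembl annotation of build BDGP6.54, bi lies on chromosome X from 4412856 to 4485647 on the plus strand, mab-21 on X from 6008183 to 6013181 on the minus strand, and AdamTS-B on X from 5698557 to 5708633 on the plus strand.

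Per library, bi cells numbered 1519 in females and 1633 in males at 12 h, 1667 in males at 16 h, 1885 in males at 20 h, 2980 in females at 24 h and 2045 in males at 36 h. Their share of filtered cells was 12.8% at 12 h in females (exact Clopper-Pearson 95% interval 12.2% to 13.4%), 14.0% at 12 h in males, 14.1% at 16 h, 17.8% at 20 h, 21.4% at 24 h in females (20.7% to 22.1%) and 17.8% at 36 h. The libraries differed in depth, so cells were also thinned to 2000 UMIs each, which left out 1429, 2341, 1191, 1491, 0 and 704 shallower cells in the same order. Among the cells thinned, the shares were 10.5%, 8.80%, 7.21%, 10.9%, 15.5% and 10.5%. The 24 h female was highest with and without thinning, while the lowest was the 16 h male with thinning and the 12 h female without it. Median depth was lowest in the 16 h male, at 5477 UMIs per bi cell, and highest in the 24 h female, at 12341. Of all cells with at least 2 bi UMIs, between 18.3% (16 h male) and 43.0% (12 h female) were removed for a UMI of an excluded gene, mostly elav, and 9.31% to 23.9% of the remainder for H15 or mid.

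The count of 2 bi UMIs is a threshold in a graded signal. Hemocytes with at least 3 Hml UMIs, a cell type used as background, reached 2 bi UMIs in 0% to 28.1% of cells, against 19.3% to 40.1% of all cells; the hemocyte share was highest in the 24 h female (57 hemocytes), where their median depth was 17250 UMIs. After thinning to 2000 UMIs it was 0% to 3.51%, against 8.01% to 18.2% of all cells. Cells just inside the threshold (2 bi UMIs) had 159 CPM of mab-21 in the 12 h female, against 52.8 CPM in cells just outside it (1 bi UMI), CPM being counts scaled to the usual fixed total for all genes of the summed cells. In the 36 h male the same 2 kinds of cell had 22.45 and 22.44 CPM of mab-21. Other genes did not share 1 order. dpp was lower inside the threshold in the 12 h female (13.4 against 20.2 CPM) and higher in every other library. AdamTS-B was lower inside in the 36 h male (9.26 against 20.2 CPM) and higher in every other library. Median depth in the 12 h female was 7143 UMIs inside and 4816 UMIs outside.

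The label was checked against markers. The epithelial transcription factor gene grh was detected in 73.8% (16 h male) to 97.6% (24 h female) of the bi cells at or under the marker limit described next. In their matched bi-zero cells the share was similar, 69.7% (16 h male) to 96.9% (24 h female). The summed level of 11 epithelium markers in all paired bi cells was 2140 to 3794 CPM, against 2114 to 3463 CPM in bi-zero cells. It was lower in bi cells in both 12 h libraries (2777 against 2863 CPM in females, 2140 against 2238 CPM in males) and higher in the older ones. Part of the bi cells went against the label. A limit of 2 UMIs on the sum of 13 fixed muscle and hemocyte markers, chosen after seeing the data, was exceeded by 1083 of the 11729 bi cells (9.23%). Their share was 19.5% and 20.1% in the 12 h female and male, 3.54% at 16 h, 4.56% at 20 h, 7.55% in the 24 h female and 4.35% at 36 h. Among all bi-zero cells it was 7.36% and 9.66% in the 12 h female and male, and 2.91% at 16 h. In the older libraries it was 5.65% at 20 h, 6.39% in the 24 h female and 6.71% at 36 h. The bi-zero share was thus above that of bi cells at 20 h and 36 h, and the widest excess in bi cells was at 12 h. Among H15/mid cells it was 0.958% to 2.78%. These cells had little grh, 56.7 to 158 CPM against 279 to 642 CPM in the other bi cells, and little mab-21, 12.96 to 26.6 against 54.4 to 203 CPM. They had much SPARC, a basement membrane protein, at 1341 to 8450 against 14.0 to 122 CPM. zfh1, a factor of mesodermal cells, was at 282 to 971 against 4.04 to 10.7 CPM. It is among the 13 markers, so the limit itself selects cells for it. The levels of grh and SPARC, which the limit did not use, went against an epithelial name, and 2 other markers did not. The epithelial cadherin gene shg was higher in these cells in 4 of 6 libraries (112 to 190 against 79.3 to 156 CPM). Mef2, a muscle transcription factor gene, was lower in them in 5 of 6 (27.5 to 122 against 20.98 to 160 CPM). Their bi level was higher than that of the other bi cells at 12 h (842 against 741 CPM in females, 767 against 729 CPM in males) and lower in the older libraries, with the widest gap at 20 h (446 against 828 CPM). Results below are for all bi cells unless restricted sets are named, in which bi cells and their matched cells were all at or under 2 UMIs of the 13 markers. In these sets, summed sheath cell markers (pros and nompA) were higher in bi cells in all 6 libraries (24.0 against 9.22 CPM in the 12 h male). Muscle markers were also still higher in all 6 (133 against 109 CPM there), and socket cell markers lower in all 6 (124 against 171 CPM). Neuron markers were higher at 12 h and 16 h and lower in the older libraries. Sums for tendon, glia, shaft, joint and sensory precursor markers had no shared order.

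**Figure D1:**
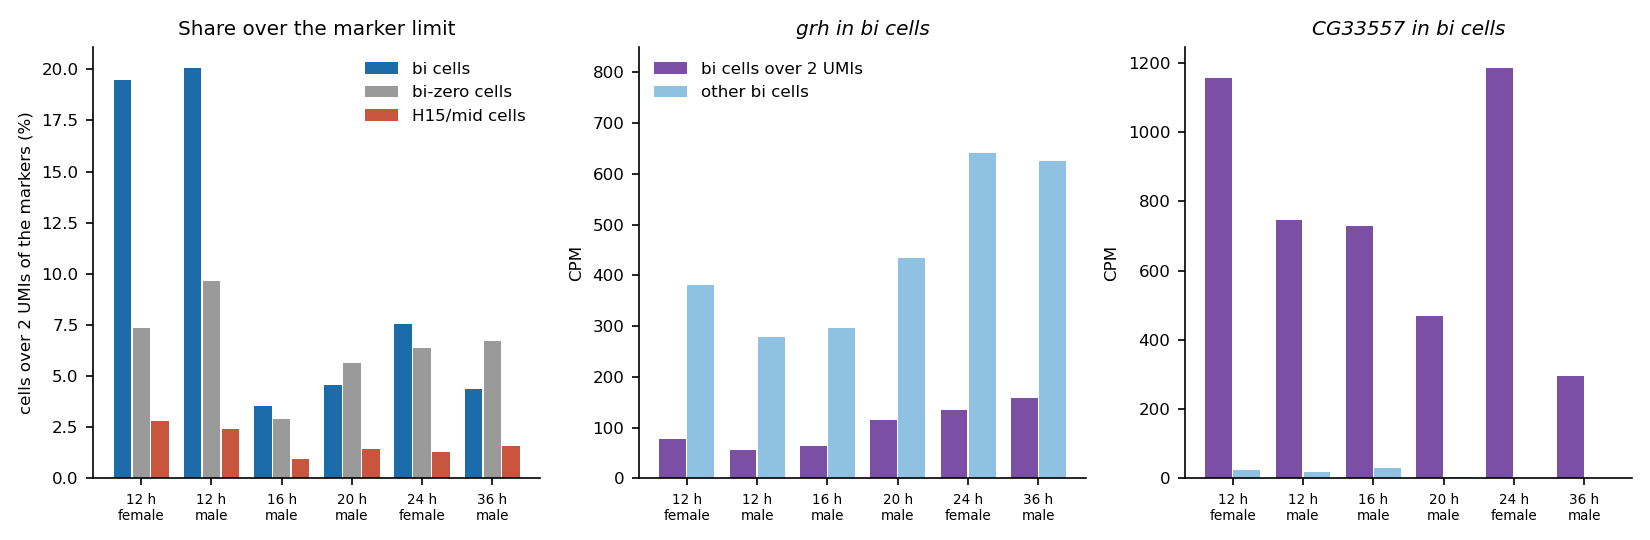
The left plot gives, per library, the percentage of bi cells, bi-zero cells and H15/mid cells with over 2 UMIs of 13 muscle and hemocyte markers. The middle and right plots give the CPM of grh and of CG33557 summed over bi cells above that limit and over the other bi cells. In the 12 h libraries 19.5% and 20.1% of bi cells were above it, and in all 6 libraries those cells had less grh and more CG33557 than the others.

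Libraries served as the replicates of the comparison between bi cells and matched cells. UMIs were summed per library and kind of cell and tested with edgeR's quasi-likelihood test with library as a block and Benjamini-Hochberg adjustment over all tested genes. The resulting p-values therefore describe how even a difference was over 6 libraries that differ in age, sex and genotype. Against bi-zero cells, 653 of 8588 genes were called at an adjusted p under 0.05 (7.6%), 280 of them higher in bi cells (3.26%) and 373 lower (4.34%). The restricted sets gave 382 called genes of 8322 (4.59%), 239 higher (2.87%) and 143 lower (1.72%). Of the higher genes 178 were called both ways, which is 63.6% of those from all bi cells and 74.5% of those from the restricted sets. Of the lower genes 118 were called both ways, 31.6% and 82.5% of each list. The count also fell to 393 without the 16 h male and to 400 without the 20 h male.

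**Figure D2:**
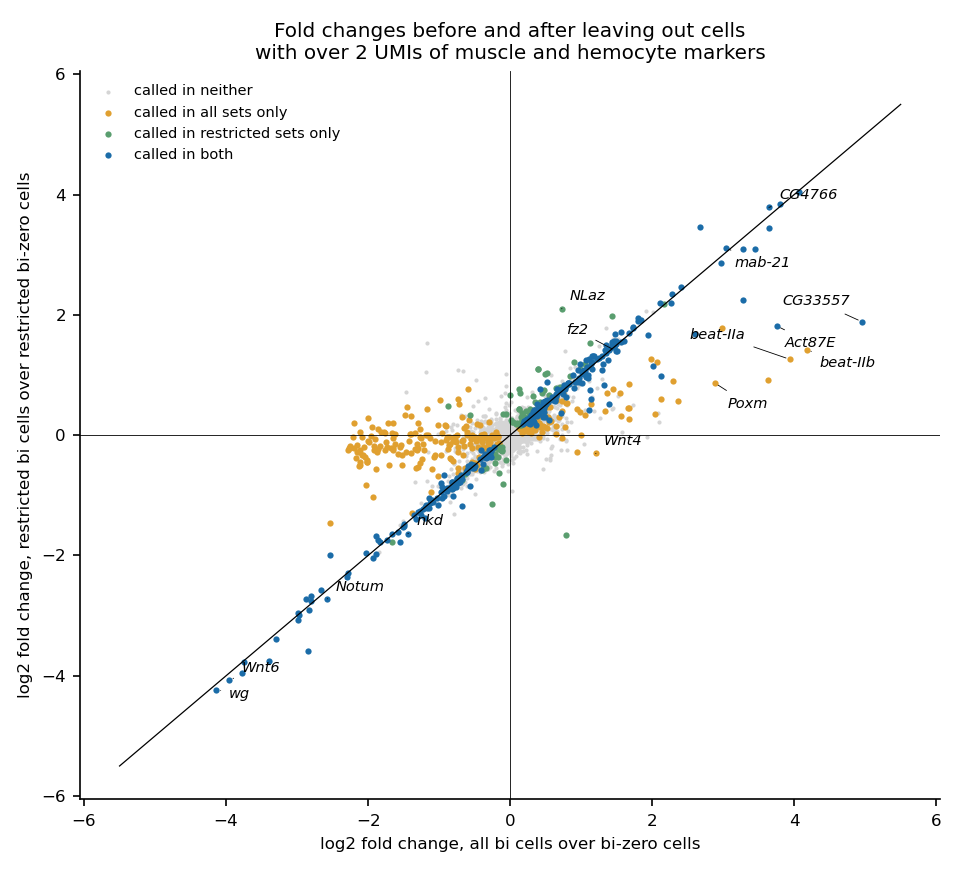
Each point is a gene, with its log2 fold change of bi cells over bi-zero cells from all cells on the horizontal axis and from the restricted sets on the vertical axis, and its colour shows where its adjusted p was under 0.05. The diagonal marks equal values. mab-21, CG4766, wg, Wnt6 and Notum lie along it, CG33557, Act87E and the beat-II genes lie below it, and a band of genes lower in all bi cells lies at a vertical value near 0.

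The dorsal markers that came with the bi cells, mab-21 and AdamTS-B, were both higher in them. mab-21, which encodes a protein of the conserved Mab-21 family, had 114, 102, 83.8, 110, 188 and 52.0 CPM in bi cells of 12 h females, 12 h males, males at 16 h and 20 h, females at 24 h and males at 36 h, against 25.7, 25.0, 17.7, 8.27, 9.23 and 4.50 CPM in their bi-zero cells. The lowest bi value lay above the highest bi-zero value. Its log2 fold change was 3.04 (SE 0.35, adjusted p = 0.0026 by edgeR) and 3.11 in the restricted sets. The level of mab-21 in bi-zero cells was lower in the 3 oldest libraries, so the log2 ratio was 2.03 in 12 h males and 3.52 in 36 h males. A mab-21 UMI was found in 24.1% (16 h male) to 48.3% (24 h female) of restricted bi cells, against 3.58% to 12.9% of their bi-zero cells, so most bi cells had none at this depth.

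AdamTS-B, which encodes a secreted metalloprotease and overlaps CG33080 on the opposite strand, had 181, 121, 100, 147, 228 and 13.5 CPM in bi cells in the same order of libraries, against 41.8, 32.3, 38.9, 41.6, 76.7 and 22.6 CPM in bi-zero cells. It was higher in bi cells in 5 of 6 libraries and lower in the 36 h male, where its level in bi cells was also far below that of the other ages. The log2 fold change was 1.46 (SE 0.33, adjusted p = 0.0349 by edgeR). Leaving out any library but the 36 h male raised that p above 0.05, to between 0.095 and 0.12, and without the library block it was 0.37.

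Several of the genes with the largest rises in both kinds of set lie near mab-21 or bi. CG4766 and lncRNA:CR44498, which neighbour mab-21 at 7.39 kb and 2.47 kb, rose by 3.64 and 3.80 on the log2 scale (adjusted p = 0.0023 and 0.00077 by edgeR), and by 3.79 and 3.84 in the restricted sets. CG4766 had 12.5 to 51.2 CPM in bi cells, against 0.593 to 3.45 CPM in bi-zero cells. lncRNA:CR32773 rose by 4.07 (adjusted p = 0.00012). It runs on the minus strand across bi, from 4387676 to 4611385, and since the sources do not say whether strand was used in counting, it cannot be treated as independent of the bi count that chose the cells. CG3556, which lies within its span, rose by 3.44 and, in the restricted sets, 3.09. CG12688 rose by 3.28 at low levels, 1.05 to 3.63 CPM in bi cells and 0.0464 to 0.490 CPM in bi-zero cells. Positions were compared for 40 annotated genes. These were bi, mab-21, AdamTS-B and the genes named by size against bi-zero cells, in either kind of set, or against H15/mid cells. Of the 40, 18 had another of them within 50 kb, in 12 pairs, which include bi with the overlapping lncRNA:CR32773. The share over all genes was not computed, so the count does not measure clustering.

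Other rises reached lower folds over a wide range of levels. Cpr12A, which encodes a cuticle protein, had 632, 1248, 50.2, 1589, 1443 and 1.53 CPM in bi cells by library, against 201, 394, 13.9, 245, 202 and 1.09 CPM in bi-zero cells. The ratio stayed above 1 in all 6 libraries while the level itself was lowest in the 16 h and 36 h males (log2 fold change 2.11, SE 0.24, adjusted p = 0.0023 by edgeR). lov, which encodes the BTB-domain nuclear factor Jim Lovell, rose by 1.85 (adjusted p = 0.0035) and reached 64.6 CPM in 36 h male bi cells, against 13.2 CPM in their bi-zero cells. CG10175 rose by 2.41 (adjusted p = 0.013), with 1.961 to 3.91 CPM in bi cells against 0.0929 to 1.88 CPM in bi-zero cells. CG34221 rose by 2.26 and CG9452 by 1.80, and both lost the call when certain single libraries were left out: CG34221 without any but the 36 h male, and CG9452 without the 12 h, 16 h or 20 h male. CG30457 missed the call in all bi cells (log2 fold change 2.17, adjusted p = 0.0511) and made it in the restricted sets (2.18, adjusted p = 0.0324). NLaz, which encodes a secreted lipocalin, had a log2 fold change of 0.72 in all bi cells (adjusted p = 0.48) and was called in the restricted sets alone (2.10, adjusted p = 0.010).

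A further group of rises moved with the cells above the marker limit. Among the 15 genes with the largest rise from all bi cells, CG33557 had a log2 fold change of 4.96 there and 1.89 in the restricted sets (adjusted p = 0.0022 and 0.0039). The immunoglobulin-family genes beat-IIa and beat-IIb had 3.94 and 4.18, and in the restricted sets 1.26 and 1.42 with adjusted p = 0.10 and 0.066, so their call was lost. The actin gene Act87E had 3.76 and 1.82 (adjusted p = 0.013 and 0.029), though actin genes are near copies between which reads can be split. Poxm, a mesodermal Pax gene, had 2.88 and 0.87 (adjusted p = 0.021 and 0.28). CG5080 kept its call at a smaller value, 2.61 and 1.69 (adjusted p = 0.00026 and 0.00064). Sox100B (3.90), meso18E (3.10) and CG2990 (2.68) fell under the minimum count in the restricted sets and were not tested there.

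**Figure D3:**
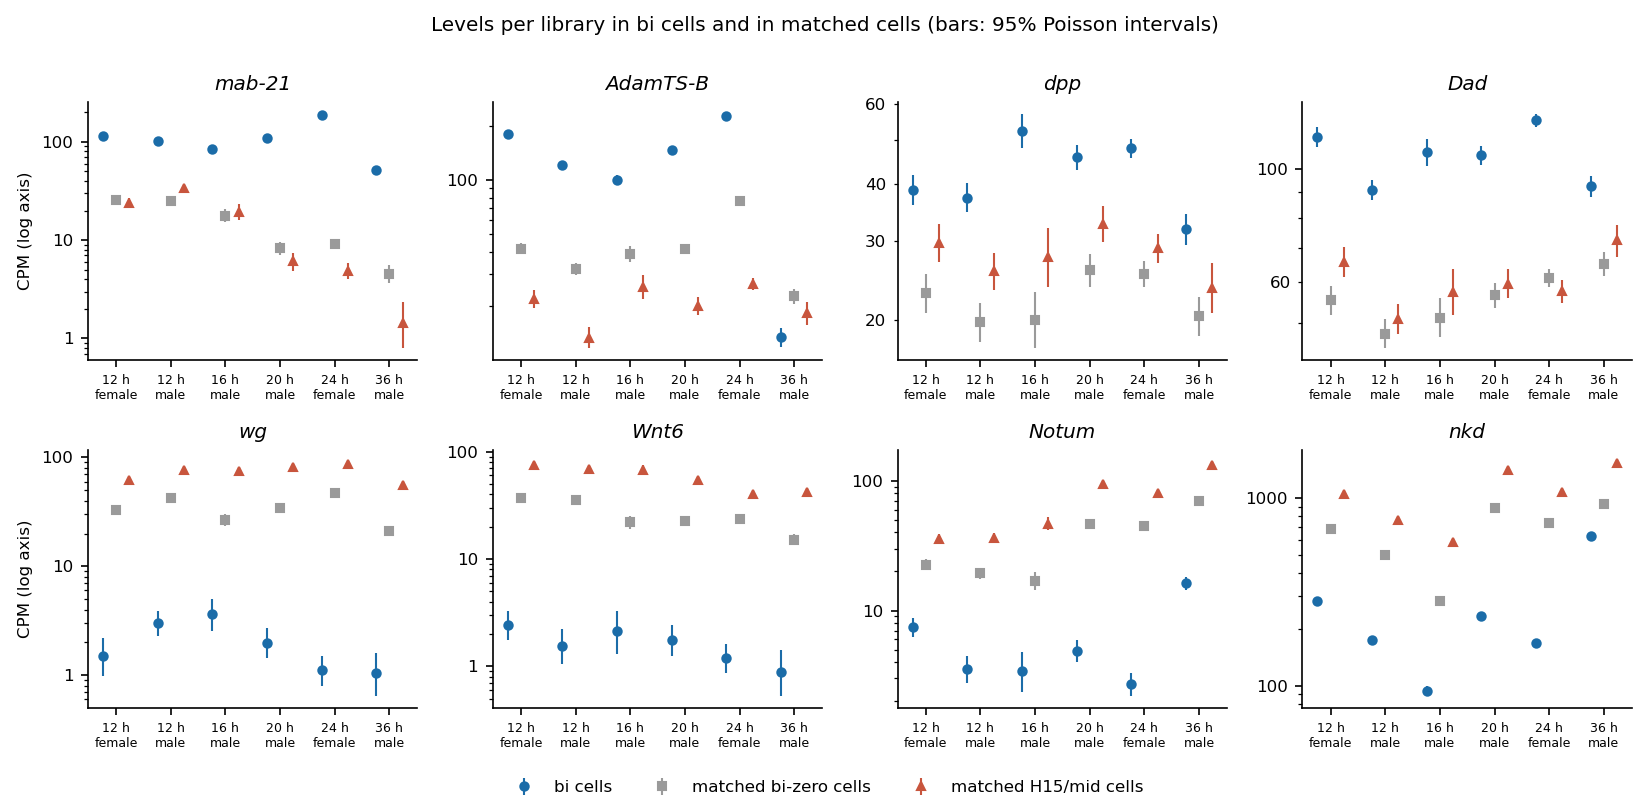
Each plot shows 1 gene, with its CPM on a log axis in bi cells (circles), matched bi-zero cells (squares) and matched H15/mid cells (triangles) of each library, and 95% Poisson intervals for counting error as bars. The H15/mid cells were paired with a subset of the bi cells. mab-21, dpp and Dad lie higher in bi cells in all 6 libraries, AdamTS-B in 5, and wg, Wnt6, Notum and nkd lie lowest in bi cells throughout.

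Of the Dpp pathway and dorsal genes, 15 of 17 were tested. 4 rose in bi cells (Dad, Doc1, Mad and dpp), 3 fell (magu, brk and tkv), and the median log2 fold change was 0.23, against -0.001 over all 8588 genes. Of all 8588 genes, 3.26% were called higher and 4.34% lower, and in the restricted sets 2.87% and 1.72% of 8322. Within the restricted sets 3 rose, since Mad lost its call (0.19, adjusted p = 0.11), and the same 3 fell.

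Among the ligand genes, dpp had 38.8, 37.3, 52.3, 45.7, 47.9 and 31.8 CPM in bi cells, against 23.0, 19.8, 20.1, 25.8, 25.3 and 20.4 CPM in bi-zero cells. The 2 ranges did not overlap (log2 fold change 0.96, SE 0.08, adjusted p = 0.00073 by edgeR). gbb, which encodes the other BMP ligand measured, had a log2 fold change of 0.26 that was not called (adjusted p = 0.15). Dad, which encodes the inhibitory Smad that the pathway induces, had 90.9 to 124 CPM in bi cells with a median of 107, against 47.7 to 65.1 CPM in bi-zero cells with a median of 56.0. These ranges were also apart in all libraries (0.97, SE 0.07, adjusted p = 0.00028). Doc1, a dorsal T-box gene related to bi in function, rose by 3.65 (adjusted p = 0.0026), but at 0.643 to 3.63 CPM in bi cells and at most 0.519 CPM in bi-zero cells.

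The 3 genes that fell are all repressed by Dpp signalling in the wing disc. tkv, the type I receptor gene, had a median of 46.9 CPM in bi cells (42.8 to 74.4), against 86.9 CPM in bi-zero cells (85.4 to 143), with the smallest gap in the 36 h male (log2 fold change -0.82, SE 0.13, adjusted p = 0.0087 by edgeR). brk, which encodes the repressor of Dpp targets, had 3.27 to 15.1 CPM in bi cells, against 13.03 to 26.4 CPM in bi-zero cells (-1.20, SE 0.18, adjusted p = 0.0064). magu, also called pentagone, a secreted modulator of Dpp spread, had 0.743 to 2.42 CPM, against 4.36 to 7.36 CPM (-1.93, SE 0.21, adjusted p = 0.0021). The remaining receptors and Smads were not called: sax had 0.12, put 0.12 and Med 0.03.

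Of the Wnt pathway and ventral genes, 15 of 16 were tested, 4 rose (fz2, arr, Wnt4 and pan) and 5 fell (wg, Wnt6, Notum, nkd and fz3), with a median log2 fold change of 0.03. The shares over all tested genes were 3.26% higher and 4.34% lower. In the restricted sets 2 rose and the same 5 fell, with a median of -0.12. Wnt4 had -0.30 there (adjusted p = 0.49), against 1.20 in all bi cells (adjusted p = 0.029), and pan lost its call (0.14, adjusted p = 0.11).

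wg had 1.499, 3.003, 3.63, 2.00, 1.12 and 1.04 CPM in bi cells of the 6 libraries, against 32.9, 42.2, 26.7, 34.2, 47.3 and 21.01 CPM in bi-zero cells. It was among the genes that fell furthest (log2 fold change -4.13, SE 0.27, adjusted p = 0.00021 by edgeR). A wg UMI was seen in 0.984% to 3.30% of restricted bi cells, against 9.96% to 22.0% of their bi-zero cells. Wnt6, the ligand gene 17.4 kb from wg, had 0.890 to 2.42 CPM in bi cells, against 15.1 to 37.2 CPM in bi-zero cells (-3.96, SE 0.13, adjusted p = 1.2e-05). Bi cells were chosen for lacking H15 and mid, while 36.7% to 62.8% of bi-zero cells had a UMI of either. Bi-zero cells with H15 or mid were therefore also removed from the restricted sets. Of 8005 genes, 325 were then called (4.06%), 192 higher in bi cells (2.4%) and 133 lower (1.66%), and wg fell by 2.20 and Wnt6 by 2.05 (adjusted p = 0.0008 and 0.00085).

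Notum, nkd and fz3, which Wg signalling induces, were lower in bi cells. Notum, which encodes a secreted enzyme that inactivates Wnts, had 2.70 to 16.2 CPM in bi cells, against 17.0 to 69.8 CPM in bi-zero cells (-2.57, SE 0.31, adjusted p = 0.0028). nkd, which encodes an intracellular feedback inhibitor, was abundant in both, with 94.1 to 630 CPM in bi cells against 284 to 931 CPM in bi-zero cells (-1.44, SE 0.19, adjusted p = 0.0042). In the 36 h male both genes were at their highest in bi cells. fz3, a receptor gene, fell by 0.95 (adjusted p = 0.0072), and its call was lost when bi-zero cells had no H15 or mid (-0.33, adjusted p = 0.053), although it held in the restricted sets with that same removal (-0.53, adjusted p = 0.026). The receptor gene fz2, which Wg represses in the wing disc, went the other way, with 183 to 277 CPM in bi cells against 71.1 to 111 CPM in bi-zero cells (1.49, SE 0.12, adjusted p = 0.00057). arr, the co-receptor gene, rose by 0.63 (SE 0.05, adjusted p = 0.00077). For arr the value without H15 and mid in the restricted bi-zero cells was 0.19 and not called (adjusted p = 0.15), and for fz2 it was 1.03 (adjusted p = 2.8e-05). Several other components did not pass the test: arm, the beta-catenin gene, had 0.15, Axn, the scaffold gene, 0.08, dsh, the Dishevelled gene, 0.03 and the receptor gene fz 0.04.

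Among the largest falls were 5 transcription factor genes. The homeobox genes lbl and lbe, 7.44 kb apart, fell by 3.78 and 3.40 (adjusted p = 0.00059 and 0.0019), with lbl at 0.926 to 2.93 CPM in bi cells against 18.7 to 32.3 CPM in bi-zero cells. The forkhead genes fd96Ca and fd96Cb, 10.1 kb apart, fell by 2.99 and 2.97 (adjusted p = 0.00018 and 5.0e-05), with fd96Cb at 2.87 to 19.4 CPM against 28.5 to 118 CPM. As both pairs are related copies, reads could be split between their members. Both forkhead genes kept nearly the same value when bi-zero cells had no H15 or mid (-2.90 and -3.05 in the restricted sets), whereas lbl and lbe moved to -2.40 and -1.94. gsb, a paired-box gene, fell by 2.67 (adjusted p = 0.013) and lies 21.1 kb from lov, which rose.

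The remaining large falls were genes of the cuticle and genes without a name. Ccp84Ad, a cuticle protein gene, had 29.5, 23.2, 6.06, 0.511, 0.0545 and 0.0494 CPM in bi cells, against 409, 388, 50.2, 5.67, 4.52 and 0.445 CPM in bi-zero cells. The fall held at every age (-3.75, SE 0.22, adjusted p = 0.00017 by edgeR) although the level in both kinds of cell was highest in the 12 h libraries. Cpr50Cb, of the same class, fell by 2.57 and was too low to be tested in the restricted sets, and Osi11, a gene of the Osiris family of membrane proteins, by 2.87. Osi11 reached 684 CPM in 36 h male bi cells and 1518 CPM in their bi-zero cells, and at most 1.31 and 23.3 CPM at the earlier ages. The neighbouring genes CG13856 and CG13857 fell by 3.29 and 2.99, CG4962 by 2.81, lncRNA:CR43949, 1.97 kb from Notum, by 2.85 (3.59 in the restricted sets), and lncRNA:CR44334 by 2.84, each with adjusted p under 0.05. CG42792 fell by 5.82 (adjusted p = 0.013) and was too low to be tested in the restricted sets. It had 0.0272 to 1.21 CPM in bi cells, against 0.109 to 214 CPM in bi-zero cells, whose median was 0.921 CPM. Restricted bi-zero cells had at most 2.47 CPM, with a median of 0.153 CPM against 0.132 CPM in restricted bi cells. The large fall was thus not seen without the cells above the marker limit.

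**Figure D4:**
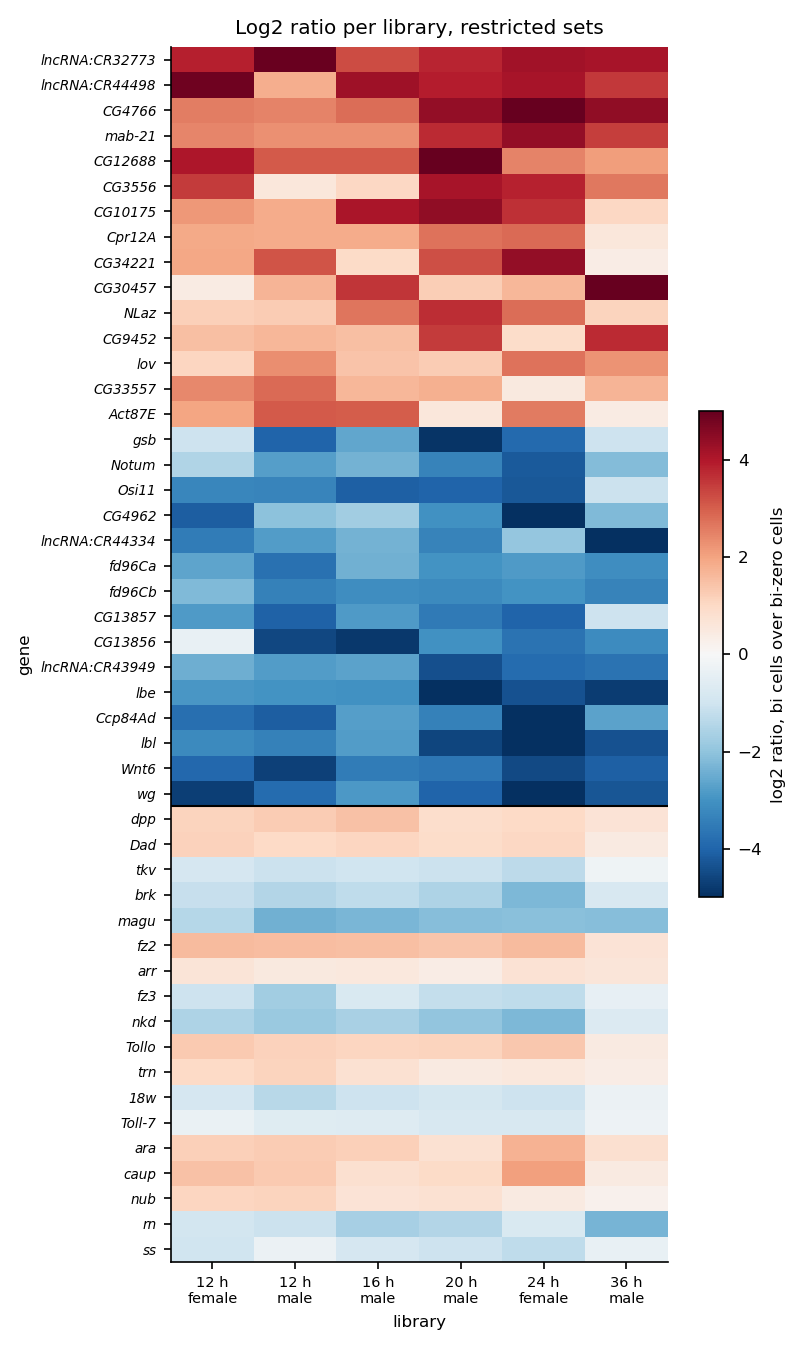
Rows are genes and columns are libraries. Colour gives the log2 ratio of CPM in restricted bi cells over restricted bi-zero cells, from -5 (blue) to 5 (red), with values beyond either end drawn at that end. The rows above the line are the genes with the largest rises and falls in the restricted sets, and those below it are members of the fixed lists. wg, Wnt6 and lbl are blue in all 6 libraries, mab-21, CG4766 and lncRNA:CR44498 are red in all 6, and the ratios of dpp, Dad, fz2, tkv and nkd are nearest 0 in the 36 h male.

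Compartment genes were measured because the bi domain spans the compartment border. Of the posterior genes en, inv and hh, edgeR called none in all bi cells and DESeq2 0, although 2 had an unadjusted p under 0.05. en had 12.4 to 44.1 CPM in bi cells, against 10.6 to 52.4 CPM in bi-zero cells (log2 fold change -0.06, adjusted p = 0.86), and a UMI of any of the 3 was seen in 26.2% to 45.5% of restricted bi cells, against 26.3% to 45.2% of their bi-zero cells. ptc, which encodes the Hedgehog receptor and is induced along the border, rose by 0.63 (SE 0.09, adjusted p = 0.0061), while the anterior gene ci did not pass (0.10, adjusted p = 0.37). When bi-zero cells had no H15 or mid, the restricted value of ptc was 1.67 and that of inv 0.56 (adjusted p = 1.4e-05 and 0.0093).

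Bi cells differed among themselves in bi itself, with a median of 3 UMIs in the 16 h male to 9 UMIs in the 24 h female and at most 124. Restricted bi cells were divided by their bi UMIs, which is a description within the rule's own measure and has no test. In every library, cells with 10 or more bi UMIs had more dpp and more ptc than cells with 2. In the 20 h male, dpp was 71.5 CPM with 10 or more bi UMIs and 30.2 CPM with 2, and ptc was 272 and 41.6 CPM. In the 36 h male, dpp was 59.2 and 18.02 CPM and ptc 251 and 71.5 CPM. mab-21 had no shared order over libraries: in the 12 h male it was 98.3 CPM with 10 or more bi UMIs and 144 CPM with 2, and in the 36 h male 67.1 and 24.0 CPM. Median depth was higher in cells with more bi UMIs in the 12 h libraries (14266.5 and 5762.5 UMIs in the male), and differed less in the 24 h female (12488 and 12383 UMIs).

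Of 23 proximo-distal and leg region factors, 20 were tested, with 7 higher (caup, ara, bab2, bab1, Lim1, tsh and nub) and 2 lower (rn and ss) in bi cells, and a median of 0.03. Over all tested genes, 3.26% were called higher and 4.34% lower. The Iroquois homeobox genes ara and caup rose by 1.14 and 1.15 (adjusted p = 0.0021 and 0.0087), ara with 8.60 to 38.6 CPM in bi cells against 2.996 to 20.1 CPM in bi-zero cells. nub, a POU factor gene, rose by 0.66 (adjusted p = 0.0098). rn, a zinc finger gene of the tarsus, fell by 1.22 and ss, which encodes the bHLH-PAS factor Spineless, by 0.82 (adjusted p = 0.0031 and 0.0076). The restricted sets had 3 genes higher (caup, ara and nub) and the same 2 lower. There Lim1 was 0.00, against 1.00 in all bi cells, tsh 0.38 (adjusted p = 0.15), against 0.99, bab1 0.25 (adjusted p = 0.18), against 0.36, and bab2 0.13 (adjusted p = 0.25), against 0.28. When H15 and mid were also absent from the restricted bi-zero cells, neither fall was called, with rn at -0.92 (adjusted p = 0.067) and ss at -0.24 (adjusted p = 0.33). The distal gene Dll had -0.15 (adjusted p = 0.15), and dac -0.02.

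Of 11 leucine-rich repeat, Toll and teneurin surface proteins, 10 were tested, 5 rose (caps, trn, Tollo, Ten-a and haf) and 1 fell (18w), with a median of 0.43. Among all tested genes, 3.26% were called higher and 4.34% lower. Tollo, the Toll-8 receptor gene, had a median of 233 CPM in bi cells (170 to 451), against 94.7 CPM in bi-zero cells (69.9 to 262). It was higher in all 6 libraries (1.15, SE 0.10, adjusted p = 0.00077 by edgeR). trn rose by 0.69 and caps by 0.39, both genes of leucine-rich repeat adhesion proteins (adjusted p = 0.0017 and 0.029). 18w, which encodes Toll-2, fell by 0.80 (adjusted p = 0.0090), with 22.6 to 79.6 CPM in bi cells against 55.4 to 92.9 CPM in bi-zero cells. In the restricted sets 4 rose and 2 fell: haf lost its call (0.46, adjusted p = 0.083), and Toll-7 fell by 0.56 (adjusted p = 0.0062).

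Of the 11 EGF receptor pathway genes, none rose and 3 fell, aos, sty and rho, with a median of -0.02. aos encodes a secreted inhibitor and sty an intracellular one, both induced by the pathway, and each fell by 0.29 (adjusted p = 0.014 and 0.023). rho, which encodes the protease that releases the ligand, fell by 0.52 (adjusted p = 0.032). The same 3 were called in the restricted sets. When bi-zero cells had no H15 or mid, sty alone fell in all bi cells and Egfr, the receptor gene, was called higher. In that setting 444 of all 8347 tested genes were called higher and 641 lower, against 280 and 373 of 8588 without the removal. With that removal in the restricted sets aos and sty fell, and rho had -0.36 (adjusted p = 0.24). Of 11 planar polarity genes, ds and d rose, by 0.23 and 0.42 (adjusted p = 0.037 and 0.040), both of the Fat and Dachsous branch. Without H15 and mid in bi-zero cells, where more genes of all kinds were called, pk, stan and ft were called higher as well. In the restricted sets with that removal d alone was called higher. Among 9 Notch pathway genes edgeR and DESeq2 called 0, and 0 had an unadjusted p under 0.05 (1 in the restricted sets, where edgeR also called 0).

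Of 18 extracellular matrix genes, 4 rose in all bi cells: AdamTS-B, stl and the type IV collagen genes vkg and Col4a1 (1.55 and 1.45, adjusted p = 0.0023 and 0.0035). The share of all tested genes called higher was 3.26%, and that called lower 4.34%. In the restricted sets AdamTS-B alone was higher and trol lower (-1.15, adjusted p = 0.042), the collagen values were 0.70 and 0.77 (adjusted p = 0.14 and 0.095), and stl was 0.54 (adjusted p = 0.11), against 0.78 in all bi cells. With no H15 or mid in bi-zero cells, 3 rose and 6 fell in all bi cells, in a setting where 444 of all 8347 tested genes rose and 641 fell. With that removal AdamTS-B alone was called in the restricted sets. Of the oxidative phosphorylation genes, 65 were tested in all bi cells and 64 in the restricted sets, with a median of -0.02 in each. edgeR called none in either, with 1 and 4 at an unadjusted p under 0.05, and DESeq2 called 0 in all bi cells. Among 12 glycolysis genes Pfk, the phosphofructokinase gene, fell by 0.28 (adjusted p = 0.017), beside 4.34% of all tested genes called lower. With no H15 or mid in bi-zero cells, 0 glycolysis genes were called. In the restricted sets with that removal, Pfk and Ldh were called lower.

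Of 6 sex and segment identity genes edgeR called none in all bi cells, with 2 at an unadjusted p under 0.05, and DESeq2 called 1, fru. dsx had 63.1, 50.8, 106, 98.1, 109 and 75.8 CPM in bi cells, against 68.2, 76.3, 119, 122, 97.8 and 72.9 CPM in bi-zero cells, so 4 libraries were lower and 2 higher (log2 fold change -0.10, SE 0.09, adjusted p = 0.63 by edgeR). At 12 h, dsx was 63.1 CPM in female and 50.8 CPM in male bi cells. Scr, the Hox gene of the foreleg segment, was lower in bi cells in all 6 libraries by a small amount that passed the test in the restricted sets alone (-0.24, adjusted p = 0.022, against -0.12 and 0.16 in all bi cells). The mCherry reporter had 69.7, 62.6, 135 and 146 CPM in bi cells of the 12 h female, 12 h male, 20 h male and 36 h male, against 167, 202, 236 and 268 CPM in bi-zero cells. It was lower in all 4 libraries that carried it (-1.08, SE 0.15, adjusted p = 0.012, and 0.054 without the 12 h female). GAL4 itself, at most 6.87 CPM in either kind of cell, had -0.25 (adjusted p = 0.41).

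Against the ventral H15/mid cells, 460 of 8152 genes were called (5.64%), 246 higher (3.02%) and 214 lower (2.63%) in bi cells. Among the restricted cells 492 of 7995 were called (6.15%), 282 higher (3.53%) and 210 lower (2.63%). The count was 256 to 714 when single libraries were left out, lowest without the 20 h male and highest without the 36 h male. The genes with the largest fall, apart from those of the rule, were wg (-5.30), Wnt6 (-5.13), lbl (-4.81), lbe (-4.46), gsb (-3.98), Notum (-3.53), lncRNA:CR43949 (-3.34) and Osi11 (-3.26), each with an adjusted p under 0.05. The H15/mid cells were chosen for H15 and mid, and bi cells for lacking them. Falls of genes transcribed in the same cells as H15 and mid are therefore partly set by that choice. wg had 55.4 to 86.8 CPM in these H15/mid cells. The 8 largest rises included CG33557, Sox100B, beat-IIa, beat-IIb, CG5080 and Act87E of the group that moved with the marker limit, lncRNA:CR32773, and alphaTub85E. With restricted sets CG33557, CG5080 and Act87E kept their calls at 3.08, 2.55 and 2.42, against 6.30, 4.84 and 4.39 in all bi cells. beat-IIb and beat-IIa lost theirs, at 1.94 and 1.55 (adjusted p = 0.12 and 0.19), against 5.03 and 4.43, and Sox100B and alphaTub85E were too low to be tested. mab-21 rose by 3.29 and AdamTS-B by 2.50 (adjusted p = 0.013 and 0.021), and the AdamTS-B call was lost without any library but the 36 h male (adjusted p 0.070 to 0.080). All 3 posterior compartment genes were lower in bi cells than in H15/mid cells: hh by 0.63, en by 0.59 and inv by 0.29 (adjusted p = 0.014, 0.015 and 0.041), and hh and en in the restricted sets as well. Dll and dac were lower by 0.42 and 0.30 (adjusted p = 0.0041 and 0.038), Dll alone of these in the restricted sets.

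Across ages the level of bi itself in bi cells lay between 713 CPM (16 h male) and 948 CPM (24 h female). This is the rule's own measure and depends on depth, which was lowest and highest in these same libraries, so no change with age is read from it. The 6 genes whose ratio of bi to bi-zero cells rose most between 12 h and 36 h males were sc, ImpE2, Rdl, Mur89F, CG13857 and GstE7. ImpE2, an ecdysone-inducible gene, had 365, 5721, 9513 and 528 CPM in bi cells of 12 h, 16 h, 20 h and 36 h males, against 675, 4874, 7232 and 64.1 CPM in bi-zero cells. Both kinds of cell had their highest level among males at 20 h, and at 36 h bi cells had 3.04 more on the log2 scale (counting interval 2.96 to 3.12). Mur89F, a mucin-related gene, was highest in males at 16 h, with 163, 938, 840 and 86.7 CPM in bi cells against 134, 557, 383 and 8.01 CPM in bi-zero cells. The 24 h females, at 17234 CPM of ImpE2 in bi cells and 13550 CPM in bi-zero cells, had the highest ImpE2 of all libraries. sc, a proneural gene, was lower in bi cells in 5 libraries and at 36 h had 2.57 CPM in bi cells against 0.346 CPM in bi-zero cells. That bi-zero level rests on few counts, and the counting interval of the change of sc was 2.98 to 5.24. CG13857 stayed lower in bi cells at both ages, with log2 ratios of -3.85 and -1.05. The rises of Rdl and GstE7 did not hold in the restricted sets, where the changes were 0.35 and -1.28.

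The 6 genes whose ratio fell most were alphaTub85E, CG10479, Act79B, side, tau and CG13305. alphaTub85E, a tubulin gene, had 27.2, 30.6, 17.8 and 1.68 CPM in bi cells of 12 h, 16 h, 20 h and 36 h males, against 1.75, 2.73, 1.76 and 32.2 CPM in bi-zero cells. Its change of -8.18 was -10.65 in the restricted sets. Act79B, an actin gene, CG10479 and side, which encodes an immunoglobulin protein of motor axon guidance, changed by -6.23, -7.37 and -6.18, and by -2.53, -4.47 and -3.71 in the restricted sets. CG13305 had 38.7 CPM in 12 h male bi cells and 1.29 CPM in 36 h male bi cells, against 1.20 and 1.63 CPM in bi-zero cells. Between the same ages dpp, Dad and wg changed by -0.27, -0.43 and -0.50, and by -0.60, -0.54 and -0.45 in the restricted sets. AdamTS-B changed by -2.65, and by -2.82 in the restricted sets.

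**Figure D5:**
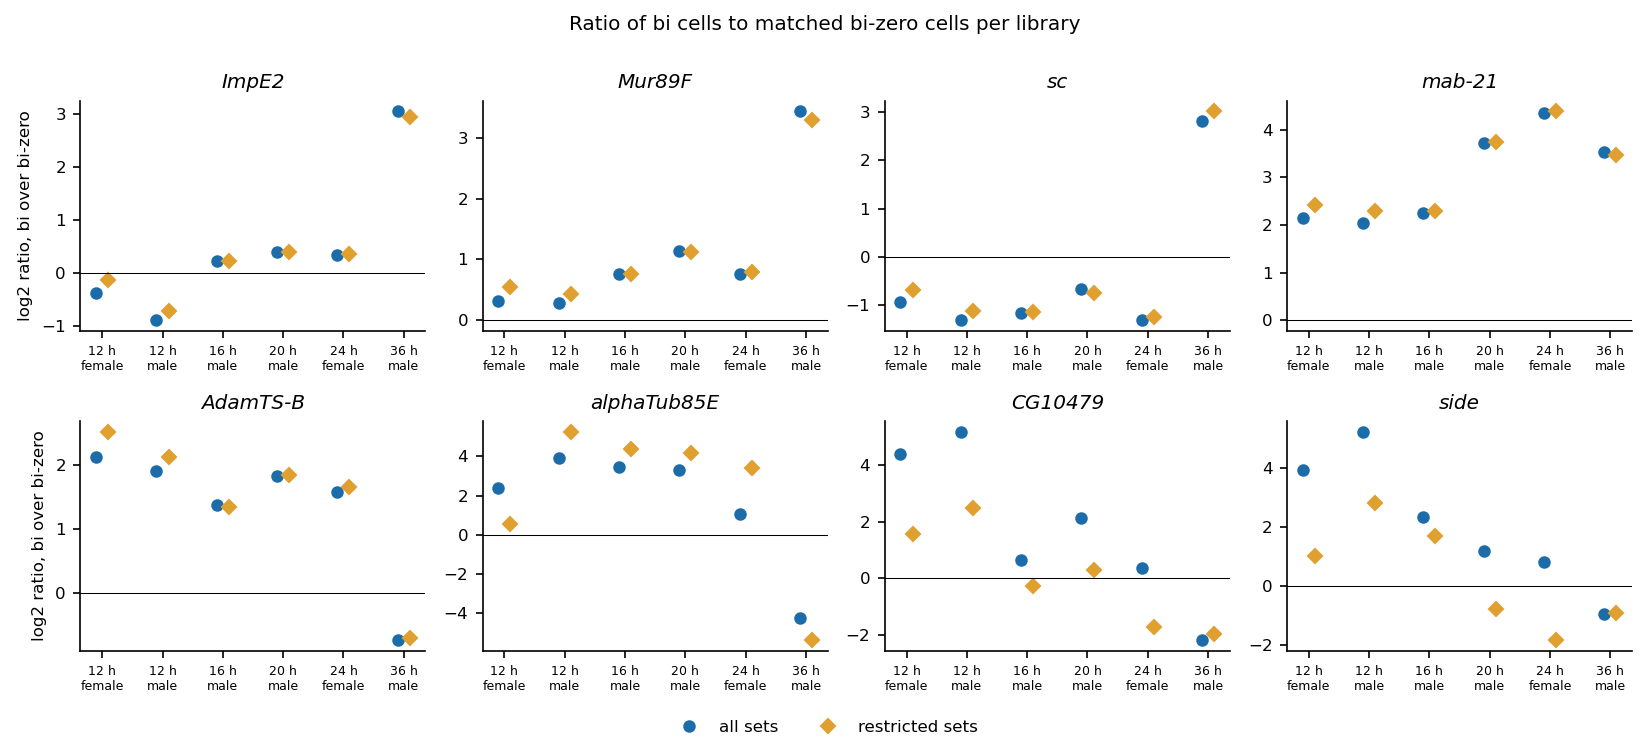
Each plot gives, for 1 gene, the log2 ratio of CPM in bi cells over matched bi-zero cells in each library, for all sets (circles) and restricted sets (diamonds), with a line at equal levels. ImpE2, Mur89F and sc have their highest ratio in the 36 h male, AdamTS-B and alphaTub85E are below 0 there, and the ratios of CG10479 and side at 12 h are smaller in the restricted sets.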

How the data were processed

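The deposited matrices hold raw UMI counts per gene and barcode, which the authors obtained from Cell Ranger 7.0.0 and build BDGP6, per the file headers and the submitters' processing notes. Filters applied by the authors before deposit are not given in the sources used here. All 6 libraries share 16496 features. 2 further matrices of the series match no sample label and were not used.

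From these counts, cells were kept and chosen as described in the report, paired within library on total UMIs, and summed. Genes with at least 10 UMIs in at least 6 of 12 sums were tested with edgeR 4.0.16 (R 4.3.3), TMM normalization, library as a block. The rule's genes are left out of every count of called genes. Log2 ratios of single libraries add 0.5 UMIs. Levels have exact Poisson and shares exact Clopper-Pearson 95% intervals, which cover counting error only. Doublets were not removed, except in an alternative (Scrublet, 0.8% per 1000 barcodes). DESeq2 1.42.0 was an alternative. Libraries shared 23 to 51 barcodes in each pair.

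The members and gene lists were chosen with earlier results of these data known. Genes were named by rule: the rule's genes and markers, list members, reporters, the 15 largest changes each way (8 against H15/mid cells) with at least 200 UMIs and 1 sign in all libraries, and the 6 ratios that changed most each way between 12 h and 36 h males. The restricted sets, and the genes named from them, were added after seeing the data. They use 13 of 18 fixed muscle and hemocyte markers. No sequences are shown.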

Additional observations from a re-analysis of the deposited data

Results flagged for a closer look

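Between 12 h and 36 h males the ratio of bi cells to bi-zero cells pointed in opposite directions for 8 of the genes whose ratios are compared between these ages in the report, with the counting intervals of both ratios clear of 0. These differences were not tested, since each age is 1 library.

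The log2 ratio of sc was 2.81 at 36 h and -1.30 at 12 h, a change of 4.11 (counting interval 2.98 to 5.24). Its level in 36 h bi-zero cells, 0.346 CPM, rests on few counts. That of ImpE2 was 3.04 and -0.89, a change of 3.93. That of Rdl was 0.46 and -3.35, a change of 3.81. The log2 ratio of alphaTub85E was -4.24 at 36 h and 3.94 at 12 h, a change of -8.18. CG10479 changed by -7.37, side by -6.18 and tau by -5.62. AdamTS-B, with a log2 ratio of -0.75 at 36 h and 1.90 at 12 h, changed by -2.65.

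The 36 h tissue was dissociated longer than the 12 h tissue, and 4.35% of bi cells at 36 h and 20.1% at 12 h were above the marker limit. The part of the dissociation time in these changes was not tested. In the restricted sets, without the cells above that limit, the changes were 4.13 for sc, 3.65 for ImpE2, 0.35 for Rdl, -10.65 for alphaTub85E, -4.47 for CG10479, -3.71 for side, -5.39 for tau and -2.82 for AdamTS-B.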

How the results depend on the processing

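The number of genes called against bi-zero cells, 653, was 382 in the restricted sets, 325 in restricted sets without H15 and mid in the bi-zero cells, 1085 in all sets without H15 and mid, 240 without cells holding a UMI of other classes, 20 without the library block, and 393 to 751 with 1 library left out. Against H15/mid cells, 460 genes became 43 without the library block and 256 to 714 with 1 library left out. Other size factors, DESeq2, no filter on low counts, wider matching, at least 3 bi UMIs, doublet removal and at least 1000 genes kept both counts within 1.5 times. No paired analysis was possible because each age and sex is 1 library, so that replicate numbers pair nothing between them; this concerns ages and sexes alone, since bi cells and their matched cells are paired by library through the block.

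Without H15 and mid in bi-zero cells, list medians were 0.17 (Wnt), 0.32 (posterior), 0.91 (anterior), 0.16 (proximo-distal) and 0.19 (planar polarity). In the restricted sets that of Wnt was -0.12 and that of Notch 0.00026. Wnt4 reversed to -0.30 and the age change of GstE7 to -1.28 in the restricted sets; the cause was not tested.

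Shares of bi cells, given for 12 h females, 12 h males, males at 16 h and 20 h, females at 24 h and males at 36 h, were 10.5%, 8.80%, 7.21%, 10.9%, 15.5% and 10.5% after thinning and 10.1%, 11.2%, 9.64%, 15.4%, 19.3% and 14.5% at 3 or more bi UMIs. With at least 1000 genes they were 14.0%, 15.6%, 15.8%, 19.0% and 18.8% without the 24 h female, which kept its value within its interval. Depth limits genes under about 1 CPM, and muscle or hemocyte RNA below the marker limit remains in the restricted sets.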
